A study of Mus musculus with 6 samples.

Results

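EphA receptors and their ephrin-A ligands were examined in RNA sequencing of whole spinal cords from mouse embryos at E13.5. The 10 genes were taken by symbol from the deposited count tables and comprised 6 receptors (Epha3, Epha4, Epha5, Epha6, Epha7 and Epha8) and 4 ligands (Efna1, Efna2, Efna3 and Efna5), of 55433 genes in all. The series set out to learn the role of NFIA, a transcription factor of the nuclear factor I (NFI) family, as motor neurons develop. It set 3 embryos labelled NFIAcKO, of genotype NFIA-ff with Nestin-cre, against 3 labelled control, of genotype NFIA-ff, all of strain C57BL/6J. Both groups carry the NFIA-ff alleles, and cre, expressed from a transgene that is active in neural progenitors, is present in the libraries labelled NFIAcKO only, so the transgene and the deletion cannot be told apart. Each library is 1 embryo.

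Eph receptors are receptor tyrosine kinases that bind ephrins on the surface of neighbouring cells, so that contact between cells steers growing axons, usually by repulsion. Ephrin-A ligands are held in the membrane by a lipid anchor and can also signal back into their own cell, while ephrin-B ligands span the membrane. In the developing spinal cord EphA4 marks motor neurons of the lateral division of the lateral motor column, whose axons enter the dorsal limb and avoid ephrin-A in the ventral limb. EphA4 also keeps the axons of some spinal interneurons from crossing a midline that carries ephrin-B3.

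All 10 genes were expressed and passed the filter on low counts, as did 17711 genes in all. Counts assigned to genes ranged from 47388945 to 48947073 in the libraries labelled NFIAcKO and from 43393053 to 51465763 in those labelled control. Levels are given as CPM, the count in relation to the size of its library, with library sizes scaled by the trimmed mean of M-values (TMM), and differences as log2 fold changes of NFIAcKO over control with a standard error (SE). A gene is said to rise or fall at a Benjamini-Hochberg adjusted p under 0.05 over all genes tested, from edgeR's quasi-likelihood test unless another tool is named. The targeted gene, Nfia, was higher and not lower in the libraries labelled NFIAcKO, at 106, 108 and 119 CPM, against 60.1, 59.1 and 79.2 CPM in those labelled control (log2 fold change 0.75, SE 0.11, adjusted p = 0.0031), and was called whichever library was left out and with the trend described below removed (0.62, adjusted p = 0.0111). A count over the whole gene does not test the deletion, and every direction below is that of the labels.

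The libraries carried the markers of a spinal cord. The 8 neuronal markers summed to 9474 to 9937 CPM in the libraries labelled NFIAcKO and 8415 to 8733 CPM in those labelled control, and the 8 Hox genes of spinal levels to 2025 to 2446 and 1729 to 2143 CPM. Of 6 forebrain markers, 2 passed the filter and neither was called (156 to 194 CPM in NFIAcKO and 162 to 175 CPM in control, nearly all Neurod6). By Xist and Ddx3y, replicate 2 of each group was a female and the other 4 embryos were males. Genes with long transcripts were higher and genes with short transcripts lower in the libraries labelled NFIAcKO than in those labelled control. For each library, the deviation of log2 CPM from the gene's mean over all 6 libraries was fitted on exonic length. Its slope per doubling of length was 0.04 to 0.09 in NFIAcKO and -0.12 to -0.02 in control. These slopes are relative to that mean, so only their differences between libraries have a meaning. The receptor genes are longer than the ligand genes, with 4713 bp (Epha8) to 16739 bp (Epha5) of exons against 1830 bp (Efna1) to 4032 bp (Efna5). The difference of each member is therefore given below also after a trend with length and GC content, fitted together, had been removed. The parts of length and of GC content in that removal were not separated. It took 0.13 from the log2 fold change of Epha8 (61.3% GC) and 0.11 from that of the longer Epha4 (45.6% GC). Other genes are given as counted unless the removal is named. In RNA from a whole tissue, a change in the number of cells of a type and a change in RNA per cell cannot be told apart.

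Promoter windows of the 10 genes, from 250 bases before to 50 bases after the RefSeq start site in GRCm38.p6, all matched by symbol. The core of the motif bound by NFI factors, TTGGC or its reverse complement GCCAA, and so read on both strands, was found in the first window of 5 of the 10 genes, and in 46.7% of 32851 windows of all genes. The full palindrome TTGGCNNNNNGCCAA, which holds both cores, was in none of them and in 0.0365% of all windows. The windows below are those of 3 genes that rose and of Epha8, which did not pass the test, each 5′ to 3′ on the strand of its gene, with cores in capitals; they show that a core stands before genes of both kinds and is missing before one that rose.
Epha4, chr1:77515039-77515338, minus strand: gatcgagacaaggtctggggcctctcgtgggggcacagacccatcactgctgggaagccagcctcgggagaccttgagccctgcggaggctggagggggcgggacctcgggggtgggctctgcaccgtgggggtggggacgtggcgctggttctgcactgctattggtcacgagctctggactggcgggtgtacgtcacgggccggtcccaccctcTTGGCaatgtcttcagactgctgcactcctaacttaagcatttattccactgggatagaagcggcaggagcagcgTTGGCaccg
Epha7, chr4:28812881-28813180, plus strand: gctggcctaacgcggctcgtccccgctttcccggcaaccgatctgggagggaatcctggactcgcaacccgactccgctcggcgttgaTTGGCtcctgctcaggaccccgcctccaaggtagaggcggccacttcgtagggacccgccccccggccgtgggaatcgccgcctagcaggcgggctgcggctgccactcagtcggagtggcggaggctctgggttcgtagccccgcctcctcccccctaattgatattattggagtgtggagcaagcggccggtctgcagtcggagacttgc
Epha8, chr4:136956767-136957066, minus strand: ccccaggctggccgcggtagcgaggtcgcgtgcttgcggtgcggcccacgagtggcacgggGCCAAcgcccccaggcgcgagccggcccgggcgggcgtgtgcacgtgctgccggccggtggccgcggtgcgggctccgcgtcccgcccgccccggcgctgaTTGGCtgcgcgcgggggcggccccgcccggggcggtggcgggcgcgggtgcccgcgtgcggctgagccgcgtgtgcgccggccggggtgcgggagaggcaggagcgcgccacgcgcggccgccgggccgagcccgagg
Efna5, chr17:62881268-62881567, minus strand: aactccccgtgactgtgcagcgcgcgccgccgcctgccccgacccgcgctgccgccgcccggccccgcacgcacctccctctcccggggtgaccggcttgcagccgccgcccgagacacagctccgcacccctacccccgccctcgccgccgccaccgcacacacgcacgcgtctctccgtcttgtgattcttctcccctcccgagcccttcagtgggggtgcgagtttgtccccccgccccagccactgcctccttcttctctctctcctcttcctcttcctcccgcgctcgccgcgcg
The Epha4 window held cores 34 bases before and 41 bases after the start site. In the Epha7 window the core lay 162 bases before the start and overlapped a CCAAT box read on the other strand, as did the one 88 bases before the start of Epha8. Efna5 and Epha6 rose without a core in their windows, while Epha8, Efna1 and Efna3 held one or more and did not pass the test. A match of these letters describes the window only.

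Among the receptors, 3 of 6 rose in the libraries labelled NFIAcKO, where 7.86% of all tested genes rose. These were Epha4, Epha7 and Epha6. The other receptors, Epha3, Epha5 and Epha8, did not pass the test, and none of the 6 fell (6.08% of all tested genes fell). All 6 had a positive log2 fold change, with a median of 0.24, against -0.0083 over all genes tested. In either direction 13.9% of all tested genes were called, 1392 higher and 1076 lower. Upper quartile scaling, which moved the median of all genes to -0.047, called 1057 higher and 1434 lower. Over all 10 members the groups did not overlap for 4, with NFIAcKO above control in each, whereas they did not overlap for 33.4% of tested genes, with NFIAcKO above for 17.3% and below for 16.1%. Summed over the 6 receptors, levels were 497 to 520 CPM in the libraries labelled NFIAcKO and 418 to 437 CPM in those labelled control.

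**Figure D1:**
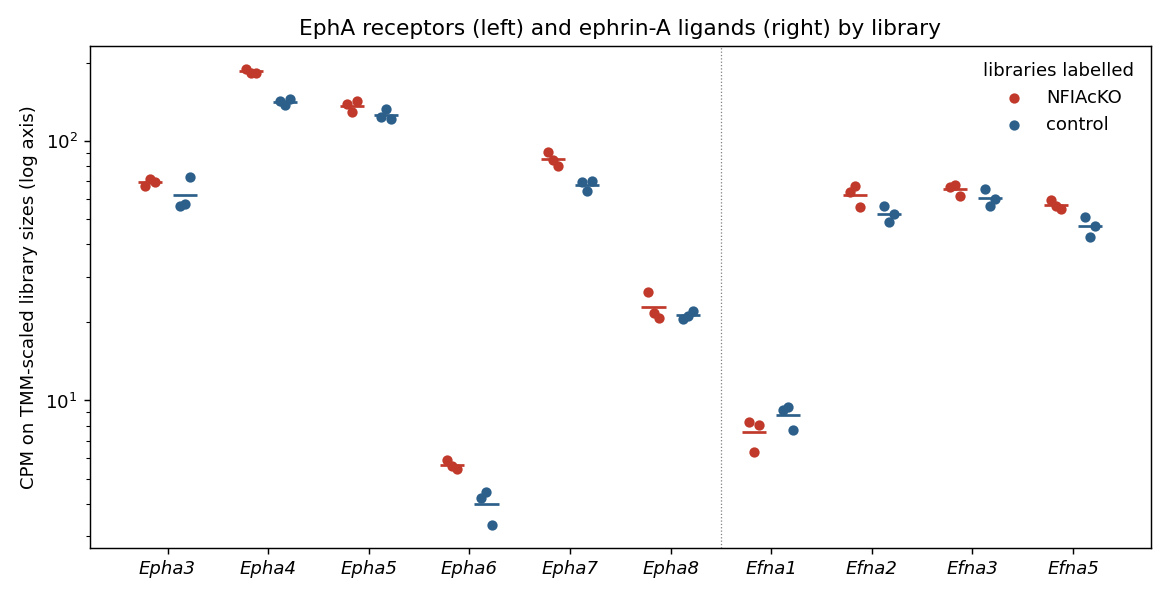
CPM of the 6 EphA receptors and 4 ephrin-A ligands on a log axis, with 1 point per library and a line at the mean of 3, libraries labelled NFIAcKO left of those labelled control for each gene. The groups do not overlap for Epha4, Epha6, Epha7 and Efna5, and a single control library of Epha3 lies above all 3 labelled NFIAcKO.

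Epha4, the receptor of the lateral motor column, was the member with the smallest p. It stood at 190, 184 and 183 CPM in NFIAcKO replicates 1 to 3, against 143, 138 and 146 CPM in control replicates 1 to 3. Every library labelled NFIAcKO lay above every control, and the 2 sets were each tight, with an SD of 2.15% of the mean in NFIAcKO and 3.04% in control. The log2 fold change was 0.38 (SE 0.07, 95% interval 0.23 to 0.54, adjusted p = 0.00749), a 1.31-fold rise. With the length and GC trend removed it was 0.27 (SE 0.06, adjusted p = 0.0225). The call was lost without control replicate 1 (adjusted p = 0.0512) and without NFIAcKO replicate 1 (adjusted p = 0.0545), at log2 fold changes of 0.38 and 0.37. The gene (ENSMUSG00000026235.14) occupies 77367185 to 77515088 on the minus strand of chromosome 1 (GRCm38), with 8054 bp of annotated exons, and no other annotated gene overlaps its exons.

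Epha7 encodes a receptor that is also made in mouse as a truncated form without the kinase domain, and a count per gene does not separate the 4 coding transcripts annotated for it. It had 91.0, 84.8 and 80.2 CPM in NFIAcKO replicates 1 to 3, against 69.7, 64.3 and 70.1 CPM in control replicates 1 to 3, and the groups did not overlap. The log2 fold change of 0.33 (SE 0.08, 95% interval 0.16 to 0.50, adjusted p = 0.0173) was reduced to 0.23 with the trend removed (adjusted p = 0.0720), which ends the call. It was also lost without control replicate 1 (adjusted p = 0.0737) and without NFIAcKO replicates 1, 2 and 3 (adjusted p = 0.113, 0.0584 and 0.0563).

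Epha6 was the least abundant member and had the largest log2 fold change among the 10. Its counts were 286, 258 and 257 in NFIAcKO replicates 1 to 3 and 185, 233 and 154 in control replicates 1 to 3, or 5.91, 5.57 and 5.44 CPM against 4.21, 4.43 and 3.31 CPM. The groups did not overlap, and the spread was wider among controls, at 14.8% of the mean, than in NFIAcKO, at 4.28%. The log2 fold change was 0.50 (SE 0.16, 95% interval 0.17 to 0.84, adjusted p = 0.0462). The call lay at the threshold: it was lost whichever of the 6 libraries was left out (adjusted p = 0.166, 0.107 and 0.108 without NFIAcKO replicates 1 to 3, and 0.115, 0.0681 and 0.0797 without control replicates 1 to 3) and with the trend removed (log2 fold change 0.46, adjusted p = 0.0808). It was also lost with upper quartile scaling (adjusted p = 0.0658) and limma-voom (adjusted p = 0.0538). Its exons overlap those of Gm9017 on the opposite strand by 107 bp, so its count is uncertain to that extent.

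Epha3, a receptor of axial motor axons, did not pass as counted. Its level was 66.9, 71.7 and 69.7 CPM in NFIAcKO replicates 1 to 3, against 56.2, 57.3 and 72.7 CPM in control replicates 1 to 3. Control replicate 3 was the highest of the 6 libraries and the other controls the lowest. The log2 fold change was 0.16 (95% interval -0.04 to 0.37, adjusted p = 0.286), and without control replicate 3 it was 0.29 (adjusted p = 0.00661). The fit without that library called 2703 of all genes higher and 2466 lower, against 1392 and 1076 with all 6 libraries. Gains of calls in that fit were thus general, also where it is named for other genes below. With the trend removed the log2 fold change of Epha3 was 0.09 (adjusted p = 0.567).

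Epha5, the longest of the members by exons at 16739 bp, and Epha8 showed smaller differences. Epha5, a receptor found widely on neurons, had 139, 130 and 143 CPM in NFIAcKO replicates 1 to 3, against 124, 133 and 122 CPM in control replicates 1 to 3. The groups overlapped, and the log2 fold change of 0.12 (95% interval -0.05 to 0.28, adjusted p = 0.339) turned to -0.078 with the trend removed (adjusted p = 0.466). Epha8 had 26.1, 21.7 and 20.7 CPM in NFIAcKO replicates 1 to 3, against 20.7, 21.2 and 22.2 CPM in control replicates 1 to 3. Of its libraries NFIAcKO replicate 1 stood above the rest, and without it the log2 fold change of 0.10 (95% interval -0.13 to 0.33, adjusted p = 0.585) became -0.0048 (adjusted p = 0.987), and -0.030 with the trend removed.

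Of the 4 ligands, Efna5 rose and 3 did not pass the test, where 7.86% of all tested genes rose and 6.08% fell. In edgeR no ligand fell, none had an unadjusted p under 0.05 for a lower level, and DESeq2 and limma-voom also called 0 lower. The median log2 fold change of the ligands was 0.18. Their summed level was 180 to 198 CPM in the libraries labelled NFIAcKO and 157 to 182 CPM in those labelled control.

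Efna5 encodes ephrin-A5, a high-affinity ligand of several EphA receptors and a repellent of motor and retinal axons. It had 59.4, 56.1 and 54.9 CPM in NFIAcKO replicates 1 to 3, against 51.0, 42.8 and 47.2 CPM in control replicates 1 to 3, and the groups did not overlap. The log2 fold change was 0.27 (SE 0.09, 95% interval 0.09 to 0.46, adjusted p = 0.0472). Removing the trend raised it to 0.34 (adjusted p = 0.0280). As counted, the call was lost with upper quartile scaling (adjusted p = 0.0748), with limma-voom (0.0539), and with 5 of the 6 libraries left out in turn (0.183, 0.111 and 0.101 without NFIAcKO replicates 1 to 3, and 0.071 and 0.183 without control replicates 1 and 2), and held without control replicate 3 (0.0188).

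Efna2, the gene of ephrin-A2, missed the threshold as counted and passed it once the trend was removed. It stood at 63.7, 67.5 and 55.6 CPM in NFIAcKO replicates 1 to 3, against 56.1, 48.6 and 52.3 CPM in control replicates 1 to 3. The groups overlapped by a narrow margin, since control replicate 1 lay above NFIAcKO replicate 3. The log2 fold change was 0.25 (SE 0.09, 95% interval 0.06 to 0.44, adjusted p = 0.0781), and 0.33 with the trend removed (SE 0.08, adjusted p = 0.0252). DESeq2 called it as counted (adjusted p = 0.0462), and so did edgeR without control replicate 3 (adjusted p = 0.0385).

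Efna1 and Efna3 lie on chromosome 3 beside Efna4, all 3 on the minus strand, with gaps of 32756 bp between Efna1 and Efna3 and 10424 bp between Efna3 and Efna4. None of the 3 neighbours passed the test. Efna3, the gene of ephrin-A3, had 66.6, 67.7 and 61.5 CPM in NFIAcKO replicates 1 to 3, against 65.4, 56.4 and 59.9 CPM in control replicates 1 to 3 (log2 fold change 0.11, 95% interval -0.07 to 0.29, adjusted p = 0.412). With the trend removed its log2 fold change was 0.19 (adjusted p = 0.117). Its exons overlap those of Gm15998 on the opposite strand by 344 bp. Efna1, the gene of ephrin-A1, which is best known from blood vessels, had 8.29, 6.35 and 8.05 CPM in NFIAcKO replicates 1 to 3, against 9.18, 9.44 and 7.72 CPM in control replicates 1 to 3 (log2 fold change -0.22, 95% interval -0.52 to 0.08, adjusted p = 0.333), and its log2 fold change was -0.05 with the trend removed (adjusted p = 0.864). It was the single member as counted with a negative log2 fold change, and the groups of both genes overlapped. Efna4 stood at 6.03 ± 0.341 CPM in NFIAcKO and 6.78 ± 0.429 CPM in control (SD, n = 3 each; edgeR adjusted p = 0.435).

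**Figure D2:**
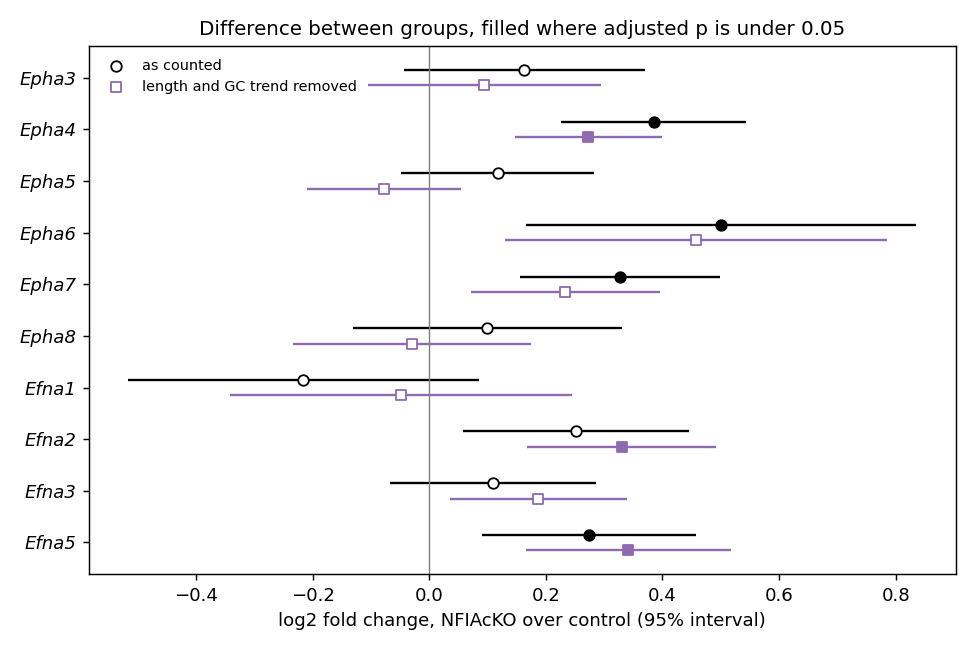
Log2 fold change of NFIAcKO over control with its 95% interval for each member, as counted (black circles) and with the length and GC trend removed (purple squares), filled where the adjusted p is under 0.05. Epha4 and Efna5 are filled in both, Epha6 and Epha7 only as counted, and Efna2 only with the trend removed.

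Counted over all 10 members, 4 rose as counted, where 7.86% of all tested genes rose. With the trend removed 3 rose, where 3.82% of all tested genes rose and 3.87% fell. The genes that rose in both were Epha4 and Efna5. The median over the members was 0.21 in either form, while receptors and ligands exchanged order: as counted the medians were 0.24 for receptors and 0.18 for ligands, and with the trend removed 0.16 and 0.26. Among tested genes of the length octile that holds Epha3, Epha5 and Epha7, 32.9% rose and the median log2 fold change was 0.21, and in the octile of Epha4 14.4% rose with a median of 0.11. In the octile of Epha6 8.31% rose with a median of 0.04, and in that of Epha8 and Efna5 3.2% rose with a median of 0.0002. Efna3 falls in an octile where 1.56% rose and the median was -0.09, and Efna1 and Efna2 in one where 0.731% rose and the median was -0.17. Of the 10 members, Epha3, Epha5 and Efna1 lay below the median of their octile and the other 7 above it. No test of the members as a set was made.

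**Figure D3:**
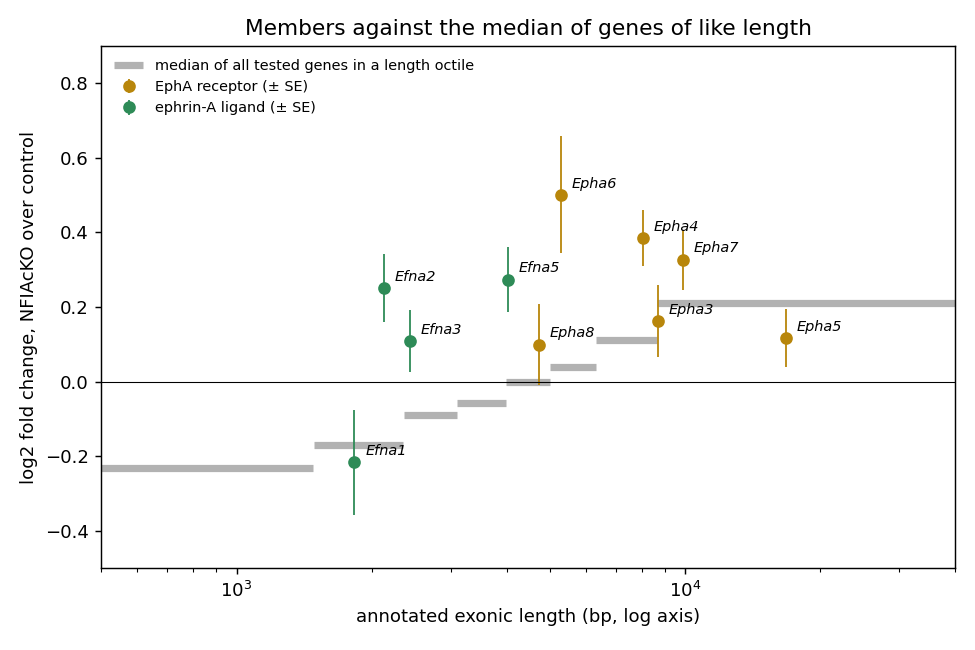
Log2 fold change of each member (± SE) against its annotated exonic length in bp on a log axis, with grey bars at the median of all tested genes in each length octile. The octile medians go from -0.23 among the shortest to 0.21 among the longest genes, and Efna2 and Epha6 stand farthest above theirs.

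Per kilobase of annotated exon, the ligands Efna2 and Efna3 were the most abundant members. In the libraries labelled NFIAcKO the order was Efna2 (29.2 ± 2.84), Efna3 (26.8 ± 1.36), Epha4 (23.1 ± 0.497), Efna5 (14.1 ± 0.579), Epha7 (8.63 ± 0.552), Epha5 (8.19 ± 0.404), Epha3 (7.99 ± 0.274), Epha8 (4.85 ± 0.611), Efna1 (4.13 ± 0.577) and Epha6 (1.07 ± 0.0456), in CPM per kilobase (SD, n = 3). In the libraries labelled control it was Efna3 (24.9 ± 1.86), Efna2 (24.6 ± 1.76), Epha4 (17.7 ± 0.538), Efna5 (11.7 ± 1.02), Epha5 (7.55 ± 0.356), Epha3 (7.14 ± 1.06), Epha7 (6.88 ± 0.329), Efna1 (4.80 ± 0.505), Epha8 (4.53 ± 0.163) and Epha6 (0.753 ± 0.112). Efna2 lay above Efna3 in 3 of 3 NFIAcKO libraries and below it in 3 of 3 controls, although the ranges of these genes over libraries overlapped in both groups. Epha7 lay above Epha5 in 2 of 3 NFIAcKO libraries, with overlapping ranges, and in control its highest library, at 7.10, lay below the lowest of Epha5, at 7.30. Epha8 and Efna1 overlapped in both groups, with Epha8 above in 3 of 3 NFIAcKO libraries and Efna1 above in 2 of 3 controls. Epha3 overlapped its neighbour Epha5 in both groups. These changes of order between genes were not tested. Epha4 made up 42.9 ± 0.277% of the summed level per length of the 6 receptors in NFIAcKO and 39.7 ± 0.727% in control (SD, n = 3 each), and the lowest NFIAcKO library, at 42.6%, lay above the highest control, at 40.5%. Shares also did not overlap for Epha6 among receptors and Efna5 among ligands, both higher in NFIAcKO. The same held for Epha8, Efna1 and Efna3, which were lower. Such shares are made from the same counts as the differences above and add no separate evidence. These levels rest on the summed exons of the annotation and not on the transcripts in use.

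**Figure D4:**
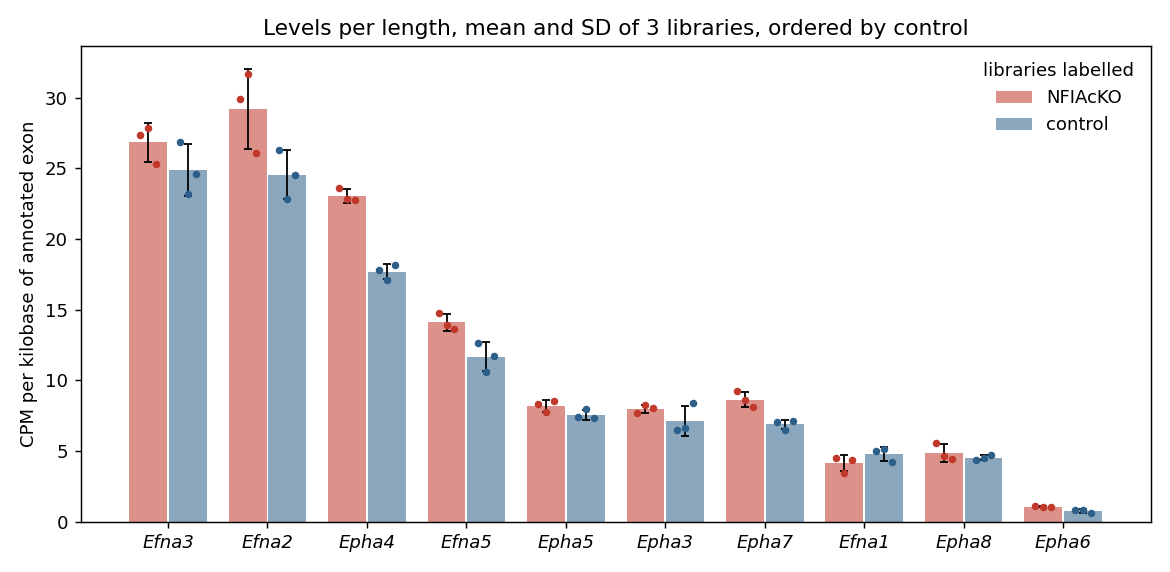
Level of each member in CPM per kilobase of annotated exon, as the mean of 3 libraries (bars), SD (error bars) and single libraries (points), with NFIAcKO left of control, in the order of the control levels. Efna2, Efna3 and Epha4 exceed 17 in every library and Epha6 stays near 1.

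The differences were also read within the splits that the libraries offer. In the female pair, 1 library against 1 with no replicate check, the log2 differences were 0.42 for Epha4, 0.40 for Epha7, 0.33 for Epha6 and 0.39 for Efna5. In the 4 males they were 0.37, 0.29, 0.60 and 0.22 for the same genes in the same order. Names of the deposited tables carry a number that 4 libraries share and a second number that the other pair, replicate 3 of each group, shares, with a meaning not given in the sources used here. Among the 4 libraries the differences were 0.41 for Epha4, 0.39 for Epha7, 0.41 for Epha6 and 0.30 for Efna5, and in the pair 0.32, 0.19, 0.71 and 0.22. Since the groups do not overlap for these 4 genes, no split of the libraries could change their sign, and the values give their size only. The sign differed within a split for Epha3 (0.29 among the 4 libraries and -0.06 in the pair), Epha8 (0.19 and -0.10) and Efna1 (-0.36 and 0.06) and, between females and males, Epha5 (-0.04 and 0.20).

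Centred log2 CPM profiles over the 6 libraries were compared among tested genes with a mean of at least 1 CPM, leaving out Gm, Rik and sex-linked genes. The 5 nearest to that of Epha4 were Zfp592, Tmod2, Fnip2, Il4 and Dcp2. Their root mean square difference was 0.0082 to 0.027 on the log2 scale, where the median of 13161 genes was 0.226. Epha7 ranked 70 among the 13161 genes, at 0.05, and Efna5 ranked 521, at 0.081. The Epha4 profile is mostly its difference between groups. Genes near it are thus those that rose by a like amount, at log2 fold changes of 0.37 to 0.41 for the nearest 5. Efna1 was the farthest of the members, at 0.341.

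Other genes of Eph signaling were taken from lists of the pathway, to be read beside the 7.86% of all tested genes that rose and the 6.08% that fell. The remaining EphA and ephrin-A genes, Epha1, Epha2, Epha10 and Efna4, had low levels of 0.429 to 7.18 CPM in NFIAcKO and 0.628 to 6.78 CPM in control on average, and 0 of 4 were called by edgeR, DESeq2 or limma-voom (in edgeR 0 had an unadjusted p under 0.05). DESeq2 gave Epha1 no adjusted p, so that tool could not call it. The ephrin-B ligands, of which ephrin-B2 and ephrin-B3 bind EphA4, were far more abundant. Efnb2 had 154 ± 8.19 CPM in NFIAcKO and 136 ± 14.0 CPM in control (SD, n = 3 each), and Efnb3 156 ± 15.6 and 151 ± 8.75 CPM, with edgeR adjusted p of 0.176 and 0.785. Of the 3 ephrin-B genes 0 were called by any of the 3 tools, and 0 had p under 0.05 before adjustment in edgeR. Of the 5 EphB receptors 2 rose: Ephb2 (331 ± 18.9 against 244 ± 17.8 CPM, log2 fold change 0.44, adjusted p = 0.0075) and Ephb1 (183 ± 1.51 against 146 ± 17.5 CPM, log2 fold change 0.33, adjusted p = 0.027). Neither was called with the trend removed (adjusted p = 0.211 for Ephb2 and 0.0753 for Ephb1), and with single libraries left out Ephb1 was called only without control replicate 3 (adjusted p = 0.000582), while Ephb2 was lost only without control replicate 1 (adjusted p = 0.0504). Ephb2 and Ephb1, with 12608 and 7002 bp of exons, lie in length octiles where 32.9% and 14.4% of tested genes rose. Exons of Ephb1 overlap those of Gm26846 on the opposite strand by 152 bp.

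Over all tested genes 7.86% rose and 6.08% fell. Of 26 effectors that act downstream of Eph receptors, 5 rose, 1 fell and 20 did not pass, with a median log2 fold change of 0.14. Those that rose were Tiam1, a Rac exchange factor (log2 fold change 0.43, adjusted p = 0.0073), the serine/threonine kinases Rock2 (0.37, adjusted p = 0.01) and Rock1 (0.35, adjusted p = 0.014), the kinase Abl2 (0.33, adjusted p = 0.014) and the Rap regulator Sipa1l1 (0.38, adjusted p = 0.017). The adaptor Crk fell (-0.29, adjusted p = 0.043). Among those that did not pass, Chn1, the Rac-inactivating chimaerin that EphA4 uses, stood at 149 ± 5.61 CPM in NFIAcKO and 139 ± 3.33 CPM in control (SD, n = 3 each; edgeR adjusted p = 0.405), and Ngef, the exchange factor ephexin, at 8.17 ± 0.90 and 8.78 ± 0.463 CPM (edgeR adjusted p = 0.637). Exons of Chn1 overlap those of its antisense genes Chn1os1 and Chn1os3 by 533 and 220 bp, and exons of Ngef those of Neu2 by 123 bp. Leaving out single libraries gave 1 to 9 rises and 0 to 4 falls, and Tiam1 alone among the 6 called effectors was called whichever library was left out. Rock2 was lost without NFIAcKO replicate 3 (adjusted p = 0.0615) and control replicate 1 (0.0577). Abl2 was lost without NFIAcKO replicates 1 and 3 (0.0805 and 0.0687) and control replicate 1 (0.0848). Rock1 was called only without control replicates 2 and 3 (0.0422 and 0.000822), and Sipa1l1 and Crk only without control replicate 3 (0.000467 and 0.00132). The 5 effectors that rose have 10048 to 18094 bp of exons, in the length octile where 32.9% of tested genes rose. With the trend removed none of the 6 called effectors was called. Crk then stood at -0.24 (adjusted p = 0.0502), Tiam1 at 0.22 (0.0726), Rock2 at 0.20 (0.0798), Rock1 at 0.13 (0.266), and Abl2 and Sipa1l1 at 0.11 (0.266 and 0.349). In that fit 1 effector, Pak1, a kinase activated by Rac, rose (0.27, adjusted p = 0.039, against 0.0676 as counted).

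Of 13 genes of Eph shedding, trafficking and dephosphorylation, 5 rose, 1 fell and 7 did not pass, with a median of 0.22. Among all tested genes 7.86% rose and 6.08% fell. Cbl, a ubiquitin ligase of receptor tyrosine kinases, rose to 98.0 ± 2.48 CPM in NFIAcKO, against 69.8 ± 6.50 CPM in control (SD, n = 3 each; log2 fold change 0.49, SE 0.08, edgeR adjusted p = 0.00495). No single library was needed for the call, which also held with the trend removed (log2 fold change 0.26, adjusted p = 0.0331). Its relative Cblb (0.42, adjusted p = 0.012), Samd5 (0.40, adjusted p = 0.012), the phosphatase Ptpro, which acts on Eph receptors (0.27, adjusted p = 0.025), and the adaptor Anks1 (0.37, adjusted p = 0.026) also rose, and the phosphatase Acp1 fell (-0.28, adjusted p = 0.044). With single libraries left out, Cblb and Samd5 were called only without control replicate 2 (0.0283 and 0.034) or 3 (0.000164 and 0.000327), and Ptpro, Anks1 and Acp1 only without control replicate 3 (0.00655, 0.00018 and 0.0104). By exon length Cbl, Cblb and Anks1 lie in the octile where 32.9% of tested genes rose, and Samd5 and Ptpro in that where 14.4% rose. With the trend removed Cbl and Samd5 (0.39, adjusted p = 0.022) rose and the other 4 were not called. Adam10, the protease that sheds ephrin-A, stood at 222 ± 8.38 CPM in NFIAcKO and 212 ± 5.20 CPM in control (edgeR adjusted p = 0.597). Exons of Anks1 overlap those of Taf11 by 341 bp and exons of Acp1 those of Alkal2 by 529 bp, each on the opposite strand.

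The receptor Ret, with its GFRα co-receptors and their ligand GDNF, cooperates with EphA4 in sending limb motor axons dorsally. Of these 6 genes (Ret, Gfra1, Gfra2, Gfra3, Gfra4 and Gdnf) 0 were called by any of the 3 tools, edgeR, DESeq2 and limma-voom, although Ret, Gfra2 and Gdnf reached p under 0.05 in edgeR before adjustment, all higher. DESeq2 gave Gdnf no adjusted p. Ret had 98.7 ± 9.16 CPM in NFIAcKO and 82.2 ± 11.7 CPM in control (SD, n = 3 each; log2 fold change 0.26, edgeR adjusted p = 0.101). It was called without the filter on low counts (adjusted p = 0.0368) and, with single libraries left out, only without control replicate 3 (log2 fold change 0.37, adjusted p = 0.00393). Gfra2 had 47.4 ± 3.48 CPM in NFIAcKO and 40.0 ± 4.83 CPM in control (edgeR adjusted p = 0.109), Gdnf 0.989 ± 0.160 and 0.641 ± 0.0374 CPM (edgeR adjusted p = 0.167), and Gfra1, the main co-receptor for GDNF, 173 ± 10.8 and 166 ± 16.2 CPM (edgeR adjusted p = 0.727). Exons of Gfra1 overlap those of the antisense gene Gm16277 by 416 bp.

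**Figure D5:**
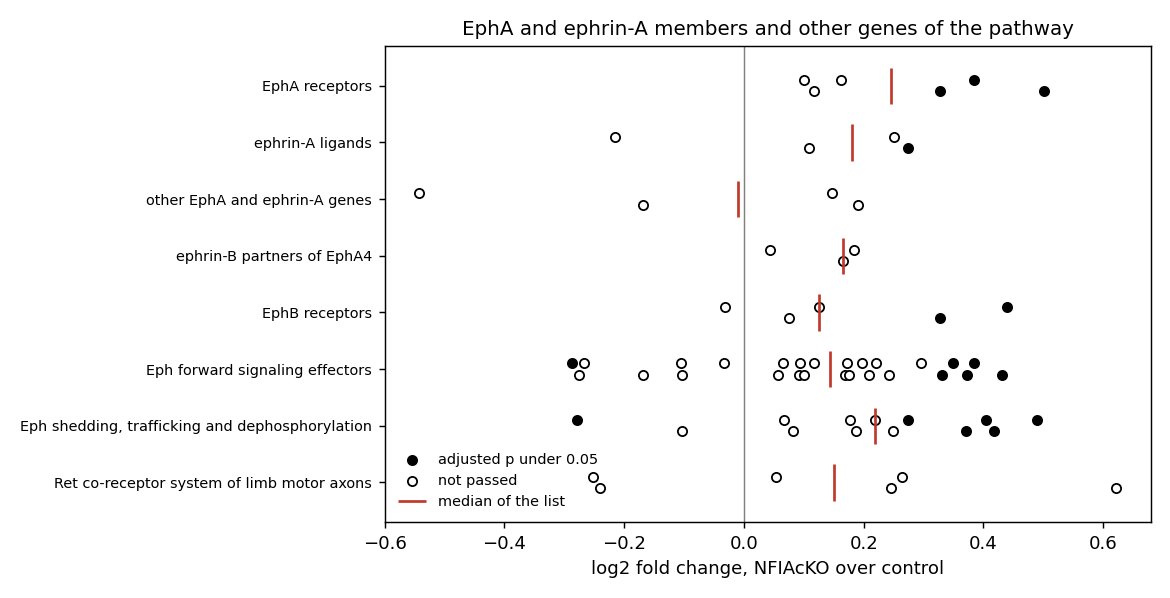
Log2 fold change of NFIAcKO over control for every tested gene of the EphA receptors, the ephrin-A ligands and 6 other lists of the pathway, 1 point per gene, filled where the adjusted p is under 0.05, with a red line at the median of each list. The 3 filled receptors lie between 0.33 and 0.50, and both filled EphB receptors at 0.33 and 0.44.

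Markers of cell types moved beside these genes, and their part in the differences of the EphA and ephrin-A genes was not tested. The share over all tested genes was 7.86% for rises and 6.08% for falls. Of 12 motor neuron markers 3 rose (Foxp1, Lhx1 and Lhx4) and 9 did not pass. Among those 9, log2 fold changes were 0.35 for Mnx1, 0.32 for Lhx3, 0.22 for Chat, 0.16 for Slc18a3 and 0.14 for Aldh1a2. They were 0.13 for Isl1, 0.12 for Isl2 and Slc5a7, and -0.15 for Prph. The list summed to 763 to 835 CPM in NFIAcKO and 634 to 731 CPM in control. Most of the difference between these sums lay in Lhx1 and in Foxp1 (155 ± 3.71 CPM in NFIAcKO and 104 ± 13.0 CPM in control, SD, n = 3 each). Lhx1, the factor that drives Epha4 in lateral motor neurons and is also made by interneurons, had 205 ± 24.8 CPM in NFIAcKO and 153 ± 22.8 CPM in control (SD, n = 3 each; edgeR adjusted p = 0.027), a call that, with single libraries left out, held only without control replicate 3 (0.00199). Of 8 neuronal markers 3 rose and 5 did not pass. Of 8 markers of progenitors and radial glia 1 rose (Nes) and 3 fell (Fabp7, Slc1a3 and Hes5), with sums of 2564 to 2815 CPM in NFIAcKO and 2771 to 2939 CPM in control. With the trend removed Foxp1 (log2 fold change 0.35, adjusted p = 0.0220), Lhx1 (0.41, 0.0288) and Slc1a3 (-0.52, 0.0243) kept their calls. In that fit Lhx4 (0.33, 0.0556) and Fabp7 (-0.21, 0.0715) lost theirs. As counted, with single libraries left out, Foxp1 was called in 6 of 6 fits and Fabp7 in 5 of 6. Slc1a3 and Lhx4 were called only without control replicate 3. Of 8 endothelial and pericyte markers 4 rose and 2 fell (517 to 538 against 488 to 511 CPM), of 8 microglial markers 3 fell (72.0 to 79.3 against 92.4 to 98.4 CPM), and of 8 blood markers 1 rose (1639 to 2271 against 1862 to 2116 CPM). Of 7 tested markers of sensory ganglia and Schwann cells 1 fell (115 to 131 against 123 to 155 CPM), with Egr2 at 0 in every library. Meningeal and mesenchymal markers (1503 to 2068 against 1290 to 1669 CPM) and those of muscle and cartilage (133 to 138 against 85.0 to 138 CPM) had no member called in edgeR, and 2 and 1 members at an unadjusted p under 0.05.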

How the data were processed

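Per the labels' protocols, the library kit selects mRNA and keeps strand. Tools named in the submitters' processing notes, with no role given, are HTSeq, DESeq2 and STAR 2.6.1a, and the build is mm10. The deposited values are raw counts per gene symbol, 1 table per library; for the counting, neither annotation nor strand setting is given in the sources used here, and genes with overlapping exons are uncertain. Summary lines, 16.9 to 19.4% of a table's total, were left out.

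Groups were compared in edgeR 4.0.16 (R 4.3.3) by the robust quasi-likelihood test with TMM scaling and filterByExpr. The test was also run on simulated counts, with changes larger than that of any member and no length trend. That run does not cover differences of the sizes reported here. Each SE is the size of the log2 fold change divided by the square root of its F statistic. DESeq2 1.42.0, limma 3.58.1, other scalings, blocks, left-out libraries and, per library, removal of a length and GC trend (natural splines of 5 degrees of freedom) were alternatives. Lengths, coordinates and overlaps came from GENCODE M21, promoters from RefSeq. Within groups, libraries differed beyond sampling noise (chi-square per degree of freedom 11.2 to 49.7). At 3 counts the floor is 0.0570 to 0.0683 CPM, for counting error only.

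Members and lists were chosen with earlier results of these data known. Named genes were all members, Nfia, of each pathway list up to 5 genes by smallest p and any other called gene, the 5 nearest profiles, the sex-linked genes, and markers that define a list. Chn1, Ngef, Adam10, Gfra1 and Pak1 lie outside that rule and were named after their values were seen.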

Additional observations from a re-analysis of the deposited data

How the results depend on the processing

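Over 16 alternatives, 4 members were called higher with DESeq2 size factors, without the filter and with the file-name number as a block, 5 with DESeq2's own test, and 2 (Epha4 and Epha7) with upper quartile scaling and with limma-voom. Fits that leave out a library gave 0 to 5 members called higher, 282 to 2703 genes called higher and 139 to 2466 called lower in all. Each upper value came from the fit without control replicate 3. Removal of the trend with length and GC left 676 genes called higher and 686 lower, and 707 and 792 with the replicate block added. No alternative called a member lower. Epha4 was called in 14 of the 16 alternatives, Epha7 in 10, Efna5 in 9, Epha6 and Efna2 in 4 each and Epha3 in 1. With the trend removed the log2 fold changes of Epha5 and Epha8 reversed to -0.0779 and -0.0299, and with the block added to -0.0779 and -0.0324. With single libraries left out that of Epha8 ranged from -0.0048 without NFIAcKO replicate 1 to 0.16. None of these was called. The fit with both trend removal and block also called Crk (adjusted p = 0.0423) and Gfra2 (0.0361). With the replicate number as a block 3 members were called higher, since Epha6 lost its call (adjusted p = 0.0513), as it also did with Xist level as a covariate, by a margin that vanishes on rounding. The labels do not name the replicate numbers as pairs. Deviations of same-numbered libraries nevertheless correlated at 0.0875, 0.12 and 0.119, while those of differently numbered libraries correlated at -0.089 to -0.037. Each library thus correlated best with its own number, and the main fit has no term for that number. The cause of these changes was not tested. Depth limits Epha6 most, at 154 to 286 counts a library.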
